A study of Homo sapiens with 4 samples.

Results

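The antigen receptor loci hold the gene segments from which B and T cells assemble the immunoglobulin heavy (IGH), kappa (IGK) and lambda (IGL) chains and the T cell receptor alpha and delta (TRA/TRD), beta (TRB) and gamma (TRG) chains. The peaks described here were chosen by the position of their summits, from the 2 lists of BCL6 peaks, in 6 intervals of hg38. Replicate 1 had 27 of its 5237 peaks inside them and replicate 2 had 16 of its 3536, which makes 43 of 8773. The intervals were TRA/TRD (chromosome 14, 21621000 to 22553000, 932 kb), IGH (chromosome 14, 105586000 to 106880000, 1294 kb), IGK (chromosome 2, 88857000 to 90235000, 1378 kb), IGL (chromosome 22, 22026000 to 22923000, 897 kb), TRB (chromosome 7, 142299000 to 142813000, 514 kb) and TRG (chromosome 7, 38240000 to 38368000, 128 kb). Both lists come from SUDHL5 cells, an established line from a diffuse large B-cell lymphoma, and were made by CUT&RUN, in which an antibody tethers a nuclease that releases the DNA around its target. The series belongs to a study of a molecular glue that brings lysine acetyltransferases to BCL6. It has 4 libraries, of which 2 biological replicates used an antibody to BCL6 and the other 2 used rabbit IgG, and the labels name no treatment for any. Because called peaks and their positions chose the members, the counts and densities below are a description and were not tested, and the files hold no library totals or expression values with which to check the cell type.

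Each receptor locus is a row of variable (V), in some loci diversity (D), joining (J) and constant (C) segments, and V(D)J recombination joins 1 of each kind during lymphocyte development. Immunoglobulin loci are rearranged in B cells and T cell receptor loci in T cells. BCL6 is a zinc finger repressor that germinal centre B cells need, the stage at which immunoglobulin genes are mutated and switched. Known enhancers lie beyond the constant segments of TRA, TRB and IGL, between the J and C segments of IGH and IGK, and beyond the last constant gene of IGH.

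Sequences were available for promoter windows, and they are shown where a peak lay on or beside an annotated start. A RefSeq window holds 250 bases before a start and 50 after it. Among the 43 peaks, 1 covered such a window. It belongs to TRD-AS1, a non-coding RNA antisense to the TRD genes with 2 annotated starts, and the peak of replicate 1 from 22431867 to 22433571 on chromosome 14 spans the window of the start at 22432753. The other TRD-AS1 start, at 22482959, and the start of LOC124901762 in TRB, at 142796691 on chromosome 7, lay 829 bp and 702 bp from the nearest summit, and no peak reached their windows. The nearest peak ended 455 bp from the first and began 10 bp from the second. The windows are printed 5′ to 3′ on the minus strand of GRCh38.p14, and capitals mark matches to the motifs named below.

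TRD-AS1, start at 22432753, window chr14:22432704-22433003: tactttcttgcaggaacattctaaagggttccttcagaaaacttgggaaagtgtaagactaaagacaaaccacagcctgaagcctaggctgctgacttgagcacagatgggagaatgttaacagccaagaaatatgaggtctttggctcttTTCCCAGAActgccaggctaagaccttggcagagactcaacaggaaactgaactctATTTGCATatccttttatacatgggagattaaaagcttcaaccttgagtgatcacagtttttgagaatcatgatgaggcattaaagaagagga
TRD-AS1, start at 22482959, window chr14:22482910-22483209: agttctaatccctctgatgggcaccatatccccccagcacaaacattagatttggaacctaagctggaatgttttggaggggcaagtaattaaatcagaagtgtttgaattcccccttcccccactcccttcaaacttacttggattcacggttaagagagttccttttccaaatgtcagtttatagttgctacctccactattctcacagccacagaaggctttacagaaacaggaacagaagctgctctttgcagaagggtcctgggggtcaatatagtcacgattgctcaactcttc
LOC124901762, start at 142796691, window chr7:142796642-142796941: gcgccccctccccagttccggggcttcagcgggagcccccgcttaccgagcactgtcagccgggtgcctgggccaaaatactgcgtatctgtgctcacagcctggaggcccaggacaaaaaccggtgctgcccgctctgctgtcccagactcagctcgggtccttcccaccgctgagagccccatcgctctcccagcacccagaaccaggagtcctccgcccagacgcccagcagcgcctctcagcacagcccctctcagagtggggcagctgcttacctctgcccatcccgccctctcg

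The letters TTCNNNGAA, a core that BCL6 and STAT factors are known to bind and that reads the same on both strands, occurred in the window under the peak as TTCCCAGAA. This match lay at 22432844 to 22432852, beginning 99 bases before the start and 179 bp from the summit. The octamer ATGCAAAT, searched on both strands and known from immunoglobulin V promoters and POU factors, occurred in the same window as ATTTGCAT at 22432789 to 22432796, beginning 43 bases before the start. The stricter form TTCCTNGAA, with its reverse complement TTCNAGGAA, is a subset of the first motif and was not among these letters. None of the 3 motifs was found in the other 2 windows. Over all 34961 windows, 7.66% held TTCNNNGAA, 1.55% the stricter form, 1.77% the octamer and 0.166% (58 windows) both TTCNNNGAA and the octamer. Of the 1284 windows that a replicate 1 peak overlapped, 9.74% held TTCNNNGAA and 2.88% the octamer. A match is a run of letters in a window and no measure of binding.

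Peaks of the 6 intervals were distributed unevenly among the loci. TRA/TRD had 16 peaks in replicate 1 and 5 in replicate 2, IGH 5 and 4, IGL 3 and 5, TRB 2 and 1, and IGK 1 in each list. No peak of either list had its summit in TRG. At the density of the whole lists, an interval of the length of TRG would hold 0.221 peaks in replicate 1 and 0.149 in replicate 2, so its lack of peaks carries little information.

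**Figure D1:**
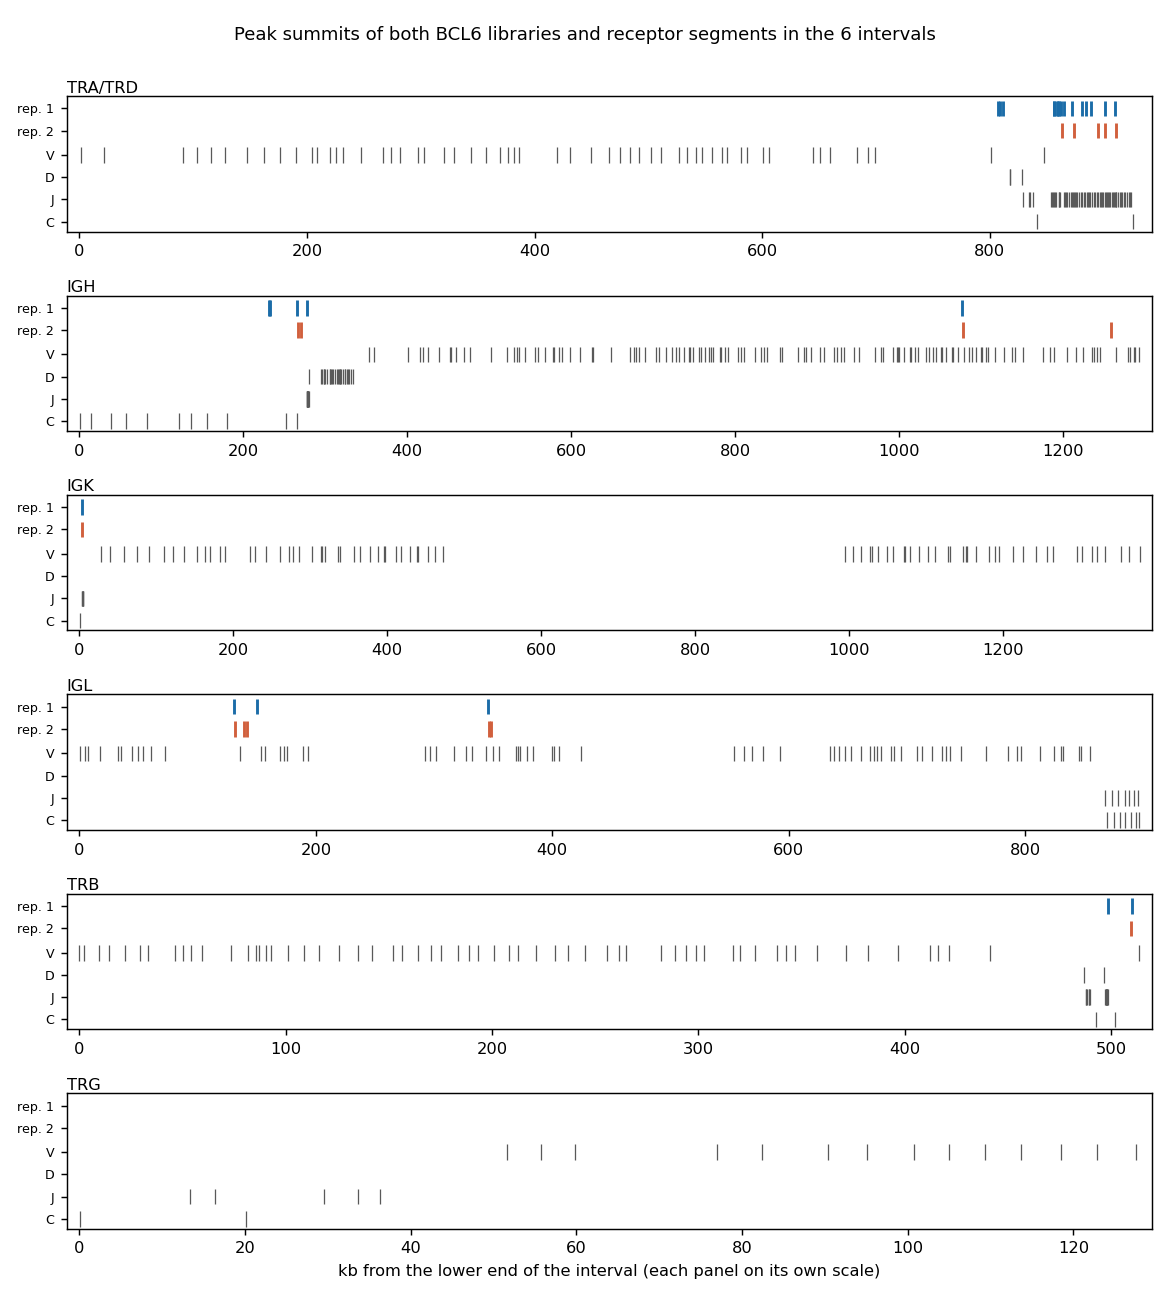
Summits of the BCL6 peaks of replicate 1 (blue) and replicate 2 (orange) and the starts of the annotated V, D, J and C segments (grey ticks), in kb from the lower end of each interval. The TRA/TRD peaks sit at and before the J segments, the IGK peaks at the J segments, and the IGL peaks among the V segments. V segments are nearest to 96.1% of positions in IGL.

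Per Mb, TRA/TRD held 17.2 peaks in replicate 1 and 5.36 in replicate 2, against 1.73 and 1.16 on chromosomes 1 to 22 and X, counted from the first to the last annotated gene of each. Its flanks, each as long as the interval, held 4.83 per Mb in both lists. IGH held 3.86 and 3.09, with 1.55 and 0.773 in its flank, which lies on the lower side only since the annotated genes of the chromosome end beside IGH. For IGL the values were 3.34 and 5.57, with 3.90 and 3.34 in the flanks. TRB held 3.89 and 1.95, and its flanks held no peak of either list. IGK was below the whole list in both replicates, at 0.726 each, with 0.726 and 1.45 in its flanks. TRA/TRD, IGH, IGL and TRB thus had higher values than the whole list in both replicates. For TRA/TRD the value over the flanks was far higher in replicate 1 only, and for IGL it was higher in replicate 2 only. Several of these values rest on 1 to 5 peaks. Lengths are those of the reference genome. Which stretches are rearranged or missing in SUDHL5, and how well reads map to them, was not examined. This limits the densities and also the stretches without a summit named below.

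**Figure D2:**
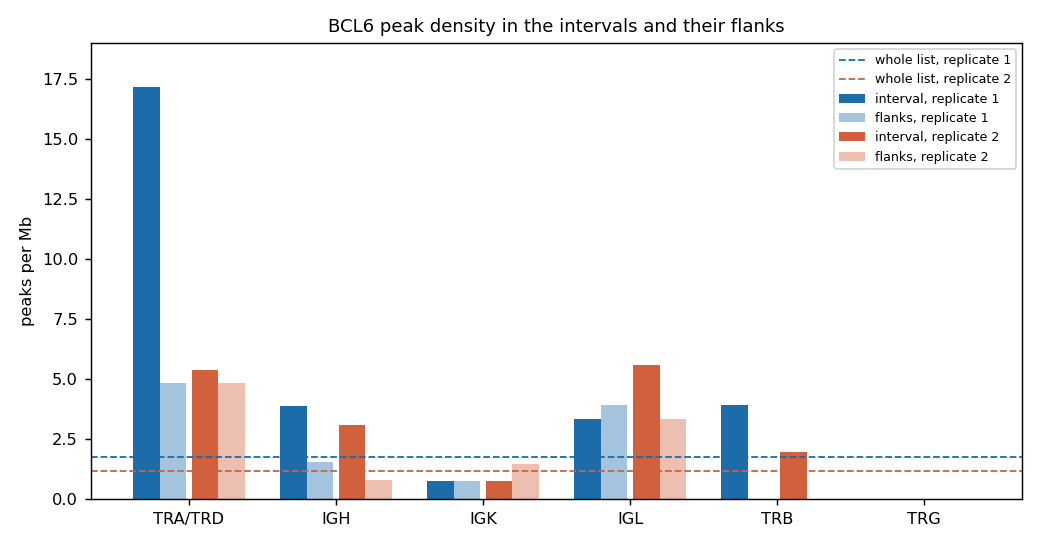
Peaks per Mb in each interval (solid bars) and in its flanks (pale bars, for IGH on 1 side), for replicate 1 (blue) and replicate 2 (orange); dashed lines give the density of each whole list. TRA/TRD in replicate 1 stands highest at 17.2 per Mb, and no bar is drawn for TRG, where both lists had 0 peaks.

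Dividing chromosomes 1 to 22 and X into tiles of each interval's own length gives a second background. Of 3238 tiles of 932 kb, 0.618% held as many replicate 1 peaks as TRA/TRD and 5.96% as many replicate 2 peaks. For IGL these shares were 20.7% and 5.14%, for IGH 16.6% and 14.3%, for TRB 18.7% and 27.6%, and for IGK 56.6% and 50.0%. Without TRA/TRD, each list had 11 peaks in the other 5 intervals, or 2.61 per Mb.

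Within the loci, the segment nearest to the summit was a joining segment for most peaks of TRA/TRD and IGK, a constant segment for 5 of the 9 of IGH, at distances from 0 to 20.6 kb, and a variable segment for all of IGL. Positions nearest to those classes make up 9.15% of TRA/TRD, 1.06% of IGK, 21.2% of IGH and 96.1% of IGL. The segment nearest to the summit was a J segment for 22 of 43 peaks, although positions nearest to a J segment make up 3.18% of the intervals. By list these were 16 of 27 peaks in replicate 1 and 6 of 16 in replicate 2. Regions in both lists enter the pooled counts once per list, and neighbouring peaks are not independent. A V segment was nearest for 15 peaks, where V segments are nearest to 88.3% of positions, a C segment for 5 (6.58% of positions) and a D segment for 1 (1.94%). TRA/TRD supplied 18 of the 22 J peaks. In the other 5 intervals, 4 of 22 peaks were nearest to a J segment (1.86% of positions) and 13 to a V segment (88.5%). At least 1 segment was overlapped, in whole or in part, by 11 of 27 peaks in replicate 1 and 4 of 16 in replicate 2.

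Annotated starts other than those of segments played a small part. The summits of 3 of 27 replicate 1 peaks and 0 of 16 replicate 2 peaks lay within 1 kb of a start of the promoter table, where 32.3% and 35.6% of the lists did on the chromosomes that the table covers. Receptor segments have no starts in that table.

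The TRA/TRD locus is considered first. It encodes both the alpha chain and, nested between its V and J segments, the delta chain. Neither list had a summit in the first 808 kb, which hold most of its V segments. The 61 TRAJ segments stretch over 69.8 kb from 22475316 to 22545098, and that stretch held 13 peaks of replicate 1 and 5 of replicate 2, that is 186 and 71.7 peaks per Mb. Of 43398 tiles of that length, 4 held 13 or more replicate 1 peaks and 45 held 5 or more replicate 2 peaks. The stretch was singled out with the peak positions known, so these tile counts are a description and no estimate of chance. All TRA/TRD peaks of replicate 2 were in the TRAJ stretch.

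**Figure D3:**
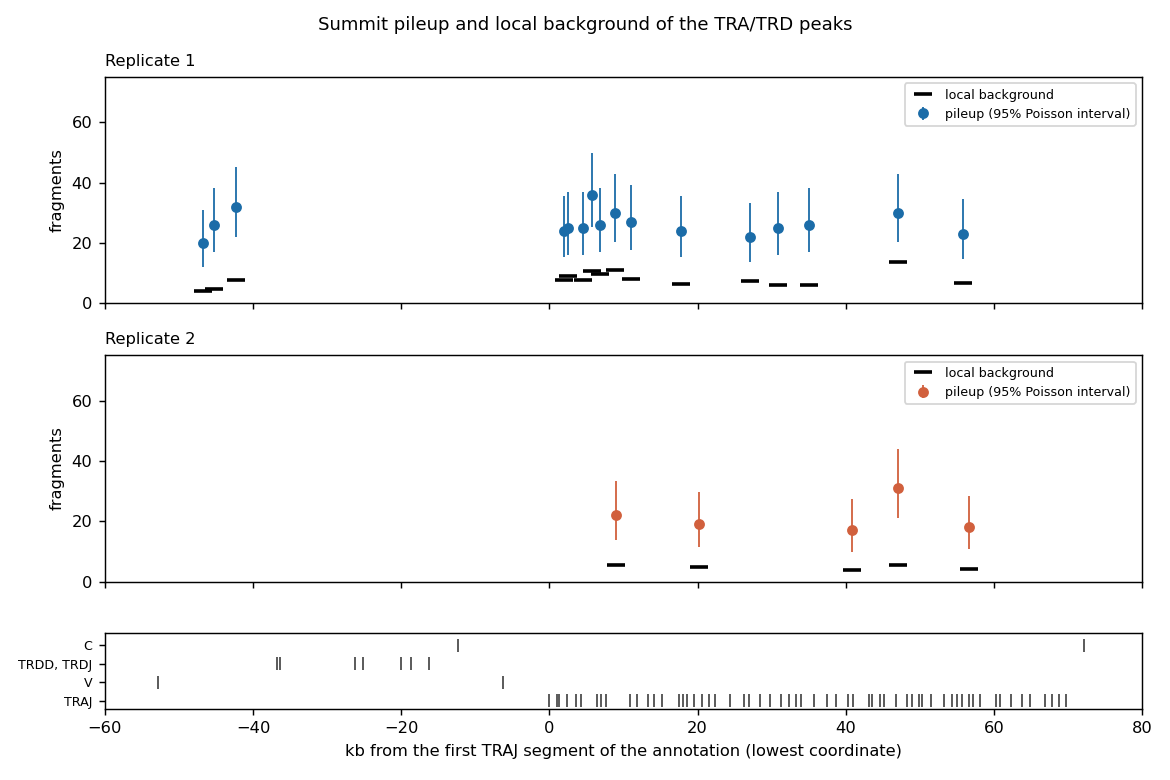
Summit pileup (points, with exact 95% Poisson intervals) and local background (black bars) of the TRA/TRD peaks, in fragments, against the distance in kb from the first TRAJ segment; the lowest panel marks the segments. Pileups run from 20 to 36 in replicate 1 and from 17 to 31 in replicate 2, and the group of 3 at the left is present in replicate 1 only.

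A group of 7 replicate 1 peaks lay within 9.65 kb at the V-proximal end of the stretch, from TRAJ58 to TRAJ52. Of its summits, those from 22477322 to 22482130 lay inside TRD-AS1, and those at 22484199 and 22486284 did not. Fold enrichments of the 7 peaks ran from 2.49 at TRAJ54 to 3.13 beside the pseudogene TRAJ55, with pileups of 24 to 36. Backgrounds were 7.86 to 11.0, all above the median of 5.90 over the replicate 1 list. Replicate 2 had 1 peak there, from 22484260 to 22484569, which overlapped the replicate 1 peak from 22483684 to 22484449 by 190 bp. Its fold enrichment was 3.61, with a pileup of 22 (95% Poisson interval 13.8 to 33.3) over a background of 5.36, against 2.59 and a pileup of 30 (20.2 to 42.8) over 11.0 in replicate 1. The summits of this shared region lay 1.13 and 1.23 kb from TRAJ53.

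The other shared region of the locus covered TRAJ22, from 22522011 to 22523253. The peaks overlapped by 940 bp with summits 56 bp apart, the closest match among the receptor loci. Pileups were alike, 30 (20.2 to 42.8) in replicate 1 and 31 (21.1 to 44.0) in replicate 2. Backgrounds were not: 13.8 in replicate 1, a value that 5.05% of the list reached, and 5.64 in replicate 2. Enrichment was 2.10-fold in replicate 1, where 99.5% of peaks had as much or more, and 4.82-fold in replicate 2, where 17.6% did. The −log10 q was 1.38 and 9.14. The peak of replicate 2 had the largest fold enrichment of that list in the locus.

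Elsewhere in the TRAJ stretch the lists gave neighbouring but separate peaks. At TRAJ13 and TRAJ12, a replicate 1 peak (fold enrichment 3.05, pileup 23) and a replicate 2 peak (3.68, pileup 18) had summits 787 bp apart. A replicate 1 peak reached into the end of TRAJ47 (3.35), with a replicate 2 peak 2.41 kb away, nearest to TRAJ43 (3.51). Peaks of replicate 1 at TRAJ38 (2.76), TRAJ35 (3.63) and TRAJ31 (3.71) and of replicate 2 at TRAJ27 (3.79) lay 5.83 kb or more from the other list.

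Between TRDV2 and TRDD1, ahead of the delta D and J segments, replicate 1 alone had a group of 3 peaks within 5.13 kb. Their fold enrichments were 4.03, 4.57 and 3.72, with pileups of 20, 26 and 32 and backgrounds of 4.21, 4.91 and 7.86. The peak of 4.57, from 22429768 to 22430219, was the largest of replicate 1 in the locus. All 3 summits lay inside TRD-AS1, and the third peak is the one over the TRD-AS1 window printed above. The nearest replicate 2 summit was 51.3 to 55.7 kb away. From that group to TRAJ58, over the delta D, J and C segments, neither list had a summit for 44.3 kb. TRAC itself, the constant segment of the alpha chain, had no peak.

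The TRB locus held peaks only at its J and C end. Replicate 1 had 1 from 142796951 to 142797450 over TRBJ2-4, TRBJ2-5 and TRBJ2-6, with a fold enrichment of 4.11 and a pileup of 16 (9.15 to 26.0) over a background of 3.14. It also had one from 142809133 to 142809721, with a fold enrichment of 4.37, a pileup of 42 (30.3 to 56.8) and a background of 8.84. Its −log10 q of 11.3 was the highest of any replicate 1 member. Replicate 2 had its single TRB peak beside it, from 142808171 to 142808817, with a fold enrichment of 3.91, a pileup of 29 (19.4 to 41.6) and a background of 6.68. The summits were 614 bp apart and 315 bp separated the peaks, so they did not count as shared. They lay 6.76 and 6.15 kb beyond the end of TRBC2, before TRBV30.

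Turning to the immunoglobulin loci, IGK had the largest fold enrichment of the receptor loci in both lists. The peak of replicate 1 ran from 88859960 to 88860748 and that of replicate 2 from 88860500 to 88860849. They shared 249 bp, had summits 511 bp apart and both covered IGKJ5, the J segment nearest to IGKC. The enrichment was 5.47-fold and 5.27-fold, which 6.75% and 12.2% of the lists reached. The pileups behind them were small, 13 (6.92 to 22.2) and 16 (9.15 to 26.0), over backgrounds of 1.56, the lowest value in the replicate 1 list, and 2.23. That lowest value was shared with other peaks of the list, among them a peak of IGL. From there to the far end of the interval, 1374 kb with all 76 V segments, neither list had a summit.

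IGH had 5 peaks in replicate 1 and 4 in replicate 2, and none overlapped. IGHM, the constant gene of IgM, and IGHJ6 are 6.98 kb apart. At the ends of that stretch, replicate 2 had a peak 143 bp beyond IGHM (fold enrichment 4.42, pileup 12, 6.20 to 21.0) and replicate 1 a peak over IGHJ6 and the pseudogene IGHJ3P (2.71, pileup 18, 10.7 to 28.4). Inside IGHM, replicate 2 had a peak of 2.97, with a −log10 q of 1.32. In replicate 1 a peak of 4.38 had its summit 1.09 kb from that one, between IGHD and IGHM. The other peaks of replicate 1 in the constant part were a pair with summits 926 bp apart between IGHG3 and IGHD, 20.6 and 19.7 kb from the latter. They had fold enrichments of 4.43, the largest of that list in the locus, and 4.32, with pileups of 15 and 33. The nearest replicate 2 summits were 34.6 and 33.6 kb away.

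The stretch between IGHM and the J segments is where the switch repeats of IgM lie, and RefSeq places 4 miRNA hairpins in it, none under a peak. Those with the most copies of AGCU, letters known to be frequent in switch repeats, are printed to show what lies between the peaks. This search was chosen after the positions were seen. MIR4539 (chr14:105857513-105857572, minus strand) held 4 copies and lay 846 bp from the replicate 2 peak, and MIR4537 (chr14:105859484-105859553, minus strand) held 7. Of 1562 hairpins in the RefSeq table, 1.66% held 3 or more copies and 28.9% any. Capitals mark AGCU, which reads the same on both strands.

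MIR4539 hairpin: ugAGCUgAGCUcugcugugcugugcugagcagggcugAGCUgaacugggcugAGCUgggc
MIR4537 hairpin: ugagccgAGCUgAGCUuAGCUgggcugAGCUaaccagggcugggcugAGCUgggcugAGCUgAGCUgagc

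Among the IGH V segments, 799.5 kb beyond the summit at IGHJ6, replicates 1 and 2 had peaks with summits 1.03 kb apart inside LOC102724977, a non-coding RNA. Their fold enrichments were 3.37 and 3.60 and their pileups 9 (4.12 to 17.1) and 11 (5.49 to 19.7). The last IGH peak, 2.49 in replicate 2 alone, lay 1.16 kb from the start of LOC124903399. Its −log10 q of 1.33 was close to the smallest value in the list, 1.31. None of the 27 D segments had a summit nearest to it.

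In IGL all 8 peaks lay among V segments and none near a J or C segment. V segments are nearest to 96.1% of positions in this interval, so the count tells little about where peaks lie. The 8 peaks formed 2 groups. The lower spanned 19.6 kb around IGLV4-60, with 2 peaks of replicate 1 and 3 of replicate 2. It held the shared region of the locus, from 22156975 to 22157515, with an overlap of 221 bp and summits 148 bp apart. Fold enrichments there were 3.96 (pileup 33, 22.7 to 46.3) and 3.26 (pileup 20, 12.2 to 30.9). A replicate 2 peak from 22167612 to 22168554 had a fold enrichment of 4.57, a pileup of 40 (28.6 to 54.5) and a −log10 q of 11.2, the highest of any replicate 2 member, but the nearest replicate 1 summit was 8.32 kb away. That summit belonged to the peak of 4.29, the largest of replicate 1 in IGL, which rested on a pileup of 10 (4.80 to 18.4).

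The upper IGL group spanned 3.44 kb between IGLV7-46 and IGLV5-45. A replicate 1 peak of 3.55 and a replicate 2 peak of 4.57 had summits 677 bp apart. A further replicate 2 peak of 4.95, the largest of that list in IGL, had a pileup of 10 (4.80 to 18.4) over a background of 1.22, the lowest value in its list. Peaks on other chromosomes shared that value. Of the other genes in the interval, VPREB1, which encodes part of the surrogate light chain, was 68.7 kb from the nearest replicate 1 summit and 77.0 kb from the nearest replicate 2 summit. For IGLL5, which overlaps the first J and C segments, these distances were 41.1 and 39.0 kb.

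The edges of the intervals were examined because the known enhancers of several loci lie outside them. The nearest replicate 2 peak beyond TRA/TRD, from 22556820 to 22557290, was 3.89 kb outside the interval and 4.76 kb past TRAC. Its pileup of 46 (33.7 to 61.4) was above that of any TRA/TRD member, with a fold enrichment of 3.65 over a background of 11.9. The nearest of replicate 1 on that side was 45.4 kb outside. Beyond IGLC7, both lists had a peak, 14.3 kb away in replicate 1 (fold enrichment 2.94, pileup 21) and 12.2 kb away in replicate 2 (3.09, pileup 25). Beyond IGHA2, the last constant gene of the heavy chain, replicate 1 had a peak 5.07 kb away (3.65, pileup 17), while the nearest of replicate 2 on that side was 659 kb outside the interval. The members nearest to an interval end were those of IGK at 3.11 and 3.62 kb and of TRB at 3.71 and 4.32 kb, described above. Outside TRB the nearest peak of either list was 598 kb away, and outside TRG it was 541 kb away.

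Shares of peaks overlapping the other replicate were below those of the whole lists, while shares with a neighbour within 10 kb were above them. In replicate 1, 4 of 27 peaks overlapped a replicate 2 peak (14.8%, Wilson 95% interval 5.92 to 32.5), against 25.8% of the list. In replicate 2, 4 of 16 overlapped a replicate 1 peak (25%, 10.2 to 49.5), against 38.5%. Both list shares lie inside these intervals. The 43 peaks made 39 regions, of which 4 were in both lists, 23 in replicate 1 only and 12 in replicate 2 only. Over the whole lists, 1316 of 7379 regions were in both. The shared regions were those nearest to TRAJ53, TRAJ22, IGKJ5 and IGLV4-60, whose smaller −log10 q was between 1.38 and 4.97.

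With summits within 2 kb, 10 of 27 replicate 1 peaks had a partner, against 35.2% of the list, and 9 of 16 replicate 2 peaks, against 50.0%. Within 10 kb, 20 of 27 had one (74.1%, 55.3 to 86.8), against 46.9%, and 15 of 16 (93.8%, 71.7 to 98.9), against 61.8%. The replicate 2 peak without a partner was the one near LOC124903399. The median distance to the other list was 4.41 kb for replicate 1 members and 14.7 kb for its list, and 1.06 kb for replicate 2 members and 2.01 kb for its list. Peaks in a dense group have more neighbours whatever they mark, and these differences were not tested.

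**Figure D4:**
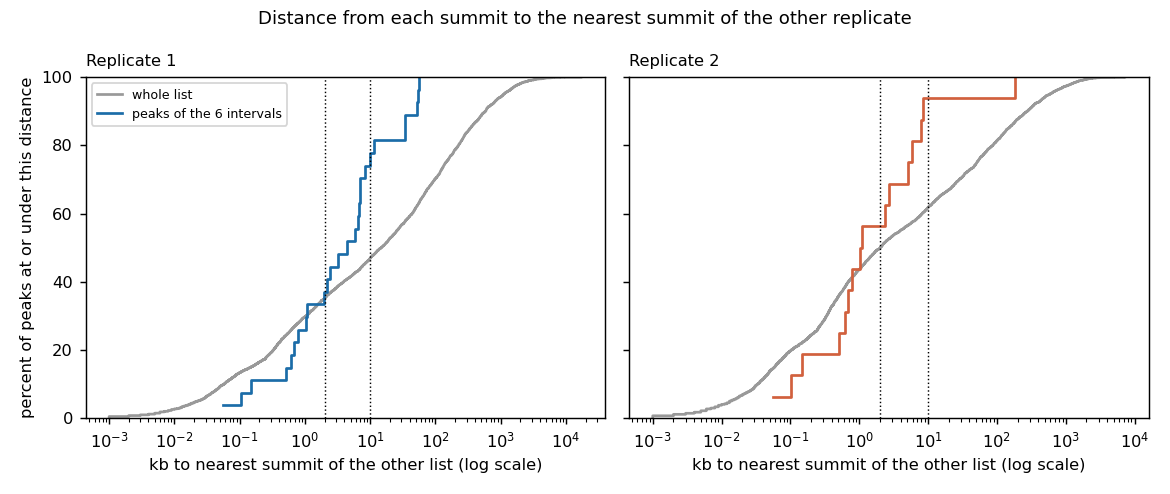
Cumulative percent of peaks against the distance in kb (log scale) from each summit to the nearest summit of the other replicate, for the peaks of the 6 intervals (coloured) and each whole list (grey); dotted lines mark 2 and 10 kb. By 10 kb the coloured lines lie above the grey ones, at 74.1% against 46.9% in replicate 1 and 93.8% against 61.8% in replicate 2.

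In replicate 1, local background set TRA/TRD and the immunoglobulin loci apart more than fold enrichment did. Median fold enrichments over the 6 intervals, 3.55 for replicate 1 and 3.74 for replicate 2, were equal to the whole-list medians to this precision, and 13 of 27 and 8 of 16 peaks were above them. The TRA/TRD peaks of replicate 1 had a median background of 7.86 (4.21 to 13.8), with 14 of 16 above the list median of 5.90 and 13 of 16 pileups above its median of 23. Their median fold enrichment was 3.05, with 5 of 16 above the list median. In the immunoglobulin intervals of replicate 1, the 9 peaks had a median background of 2.61 (1.56 to 7.58), a median pileup of 13 and a median fold enrichment of 4.29. By these medians, TRA/TRD peaks of replicate 1 had more fragments at the summit and less enrichment over the local background than immunoglobulin peaks. These values are tied, since fold enrichment is the ratio of pileup to background. Peak calling also lists a peak of few fragments only where that ratio is high.

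In replicate 2 the order was the same for background, with medians of 4.70 (3.75 to 5.64) in TRA/TRD and 3.22 (1.22 to 7.97) over 10 immunoglobulin peaks, against 4.63 for the list. Of the 5 TRA/TRD peaks of replicate 2, 3 had a background above that list median. Ranges of the 2 kinds of locus overlapped in each replicate, and in replicate 2 the TRA/TRD range lay inside the immunoglobulin range. The median fold enrichment of replicate 2 was 3.68 in TRA/TRD and 4.01 in the immunoglobulin intervals. Chromosome 14, which holds TRA/TRD and IGH, had median backgrounds of 6.27 and 4.70 over all its peaks, and the other 3 chromosomes had 5.90 in replicate 1 and 4.08 to 5.19 in replicate 2. What the background rests on was not tested, since the control given to the peak caller is unknown and IgG values were not analysed here. The background is therefore not to be read as BCL6 signal around the peaks.

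**Figure D5:**
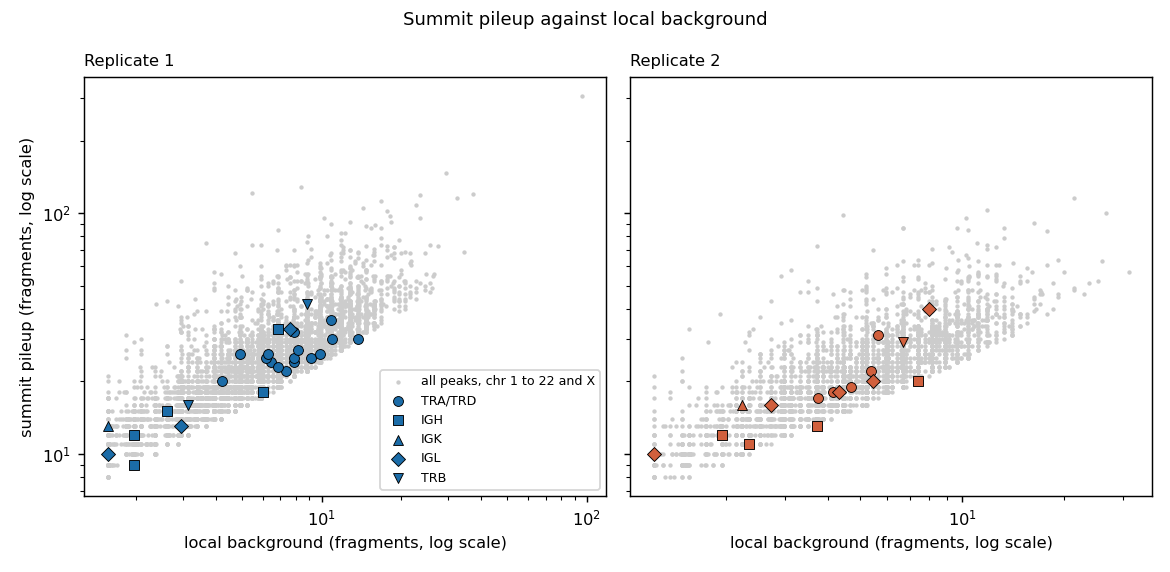
Summit pileup against local background, both in fragments on log axes, for all peaks of chromosomes 1 to 22 and X (grey) and for the peaks of the receptor intervals by locus (symbols). In replicate 1 the TRA/TRD circles lie at backgrounds of 4.21 to 13.8, to the right of most immunoglobulin symbols.

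Genes of the machinery that acts on these loci, and markers of both lymphocyte lineages, were followed by the regions of both lists within 10 kb of either end of the gene, which 4.72% of 19974 protein-coding genes had. Of 12 V(D)J recombination genes 1 had one, HMGB1, a chromatin protein known to assist RAG cleavage, 0.314 kb away and enriched 2.81-fold and 2.87-fold. For the recombinase genes RAG1 and RAG2 the nearest such region was 1857 and 1937 kb away. Of 16 genes of class switching and somatic hypermutation 2 had one: the abasic-site protein HMCES (3.67 and 3.94) and the shieldin subunit SHLD3 (3.66 and 3.68).

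Of 10 partners of the receptors 2 had a region of both lists. CD79B, a signalling chain of the B cell receptor, had one 0.048 kb away (2.48-fold and 3.17-fold), and the adaptor BLNK had one 7.55 kb away (5.46-fold and 3.26-fold). Among 19 regulators of receptor loci 2 had one, RUNX1 (2.76 and 3.70) and IRF8 (3.19 and 5.47). These regions were 0.366 kb from RUNX1 and 9.73 kb from IRF8, the latter close to the limit of 10 kb. PAX5, which specifies B cells, had a summit of each list within 10 kb but no region of both lists nearby. Of 10 B cell markers 4 had a region of both lists (FCRLA, BLK, CD22 and CD79B), and of 12 T cell markers 3 did (CD3E, LCK and PTCRA, the pre-T cell receptor alpha chain). CD3E, a signalling chain of the T cell receptor, had its region 0.339 kb away (3.26-fold and 3.19-fold). In single lists, 15.2% of all protein-coding genes had a replicate 1 summit within 10 kb and 11.3% a replicate 2 summit. By the same count, V(D)J recombination had 1 of 12 genes in each list, switching and hypermutation 8 and 4 of 16, the receptor partners 3 and 3 of 10, and the locus regulators 10 and 6 of 19. T cell markers had 4 and 4 of 12, and B cell markers 8 and 5 of 10. The lists were chosen with earlier results known and were not tested, and a peak near a gene is no measure of its expression.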

How the data were processed

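CUT&RUN was carried out on SUDHL5 nuclei, with 2 libraries for BCL6 and 2 for rabbit IgG, as the titles group them. IgG values were not analysed here. Per the submitters' processing notes, the genome build was hg38, the aligner named is Bowtie2 and the peak caller MACS2, beside cutadapt, FastQC, Picard, SAMtools, deepTools and bedtools. For their versions, and for the control given to MACS2, nothing is given in the sources used here. The authors deposited 1 peak list per BCL6 library, in narrowPeak layout, with no pooling. Each deposited peak has a summit, a fold enrichment (a ratio over local background), a −log10 p, a −log10 q and a score, which was not used. The deposited −log10 q values start at 1.31 in both lists. Library totals are unknown.

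Summit pileup and local background were solved jointly from the deposited −log10 p and fold enrichment, to within 0.001, for all 27 and 16 member peaks, by a routine tested on simulated data (Python 3.11.15, SciPy 1.17.1). Peaks sharing at least 1 bp were merged. Shares carry Wilson 95% intervals and pileups exact Poisson intervals, which hold counting error alone, as PCR duplicates of a molecule are not independent. Genes, starts, promoter windows and hairpins came from RefSeq tables of GRCh38.p14, a patch release of the hg38 assembly. All 570 receptor segments inside the intervals were taken from there, and all members of the 6 gene lists were found. Biological replicates are as labelled, and peaks of 1 library are not replicates. Members and lists were chosen with earlier results of these data known, so no test was run on them. Regions found in both lists, the peak with the largest fold enrichment of each interval and list, and other genes at a summit are named.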

Additional observations from a re-analysis of the deposited data

How the results depend on the processing

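No paired analysis was possible because the lists of 1 group only, BCL6, were used. With −log10 q of at least 5, 7 of 27 peaks of replicate 1 and 4 of 16 of replicate 2 were kept, with 0 regions in both lists; of all peaks on chromosomes 1 to 22 and X, 1820 of 5230 and 1149 of 3529 were kept. With at least 10, 1 peak of each list was kept and 0 regions. Without the TRA/TRD interval, an alternative chosen after seeing the data, 11 peaks of replicate 1 and 2 regions in both lists were left. Reciprocal overlap of at least 50% left 1 region in both lists, so that 3.70% of the replicate 1 peaks and 6.25% of the replicate 2 peaks were found again. Shared regions of the whole lists at the stricter thresholds and with reciprocal overlap are not given here. The losses of shared regions can therefore not be compared with them. At −log10 q of at least 5, 14.3% of 7 replicate 1 peaks and 50% of 4 replicate 2 peaks overlapped the other list. That other list was not filtered, so these shares do not conflict with the 0 shared regions. A wider match, also chosen after seeing the data, gave 37.0% and 56.25% within 2 kb, and 74.1% and 93.75% within 10 kb. Leaving out 1 library left 16 to 27 of the 39 regions. The median background was 2.61 in replicate 1 with immunoglobulin intervals alone, and 6.16 in replicate 2 with −log10 q of at least 5. Membership by overlap in place of summit, and intervals widened by 100 kb, kept all counts within 1.5 times. A typical member rests on 18 to 25 fragments, so the lack of a peak does not show that BCL6 was absent.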
